A study of Saccharomyces cerevisiae with 3 samples.

Results

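Away from the chromosome ends and the known repeats, 33 of 5377 interior open reading frames (ORFs) of Saccharomyces cerevisiae gave a different array signal in the parental strains Sc1 and Sc2 on 2 separate readings. This is 0.614% of the interior ORFs, and the whole table held 6123 ORFs with a value in all 3 samples. The ORFs were picked by their values: the sample that compares Sc1 with Sc2 directly, and the difference between the samples that compare the hybrid R2 IVo with Sc2 and with Sc1, each had to be at least 0.3 in size and of the same sign. The 20 highest-numbered measured ORFs of each chromosome arm, Ty retrotransposon ORFs, ORFs whose names end in -A or -B, the CUP1 and ENA repeats, FLO1 and HXK1 were set aside. ORFs with YCLX or YCRX names have no place in that numbering, so they were counted as interior and left out of the neighbour order. Because these values chose the members, the parental differences below are a description and carry no evidence of their own.

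The 3 strains were parental strain 1 (Sc1), parental strain 2 (Sc2) and R2 IVo, an intraspecific hybrid of the pair, all grown and dried by an industrial protocol per the labels. Genomic DNA cut with Hinf I was labelled with Cy3 and Cy5 and hybridised in pairs of strains, with duplicate arrays and exchanged dyes. Every sample stands for 1 such pair, already combined over its arrays by the authors, so there is 1 value per ORF and pair and no spread between cultures. Values are log ratios with the first-named strain as the numerator, centred on each sample's median. The base of the logarithm is not stated and was read as 2, and the common direction rests on the titles, so every fold and every direction below holds only if both readings hold. If all 3 samples ran the other way, each statement of which strain was higher would turn.

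Array comparative genomic hybridisation sets the DNA of a strain pair side by side on probes for each gene. The signal of a probe rises with the number of gene copies and falls when the strain's sequence differs from the probe, and these cannot be told apart here. In domesticated yeasts most known differences of this kind lie near chromosome ends and in repeated families, while interior genes, many of them needed for growth, are usually present in every strain.

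Among the members 28 were higher in Sc2 and 5 were higher in Sc1, or 28 in Sc1 and 5 in Sc2 if the samples ran against their titles. The estimate that combines the direct sample with the path through the hybrid ran from −1.07 (CUE4) to 0.49 (SWP1) in log2 of Sc1 over Sc2. Sc2 exceeded Sc1 by a median of 1.40-fold over the 28 and by at most 2.10-fold, and Sc1 exceeded Sc2 by 1.26-fold to 1.41-fold over the 5. The median size was 0.47 for the members, 0.93 for the 76 ORFs of the chromosome ends with the same values of the rule, and 1.41 for 14 Ty ORFs. These sets were all chosen by the same values, so their sizes are not tested against each other. Over all 6123 ORFs, 2.11% met the value part of the rule.

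**Figure D1:**
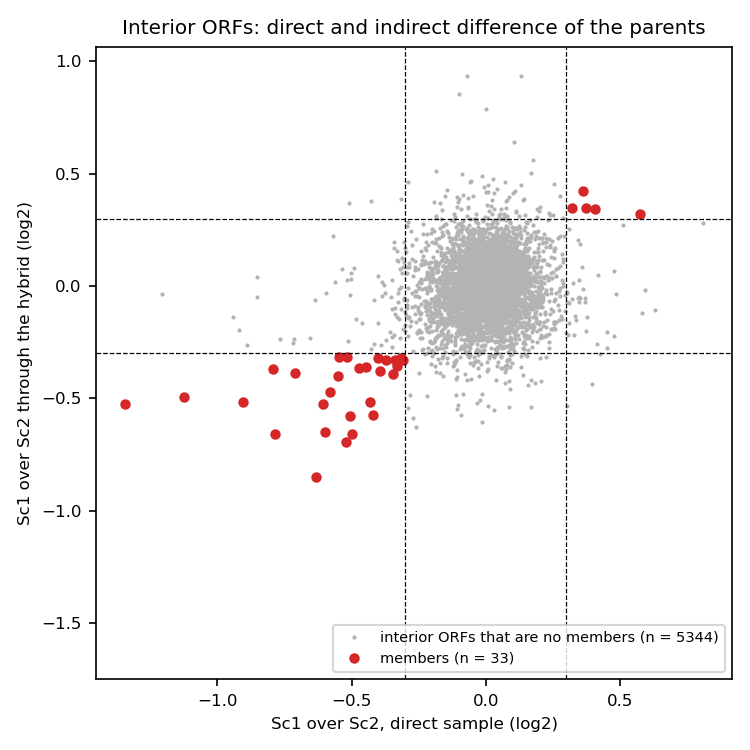
Difference of Sc1 and Sc2 in the direct sample (x axis, log2) against the difference read through the hybrid (y axis, log2) for the interior ORFs. Red points are the 33 members, grey points the other 5344 interior ORFs, and dashed lines mark a size of 0.3; 28 members lie at the lower left and 5 at the upper right.

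The direct sample alone placed 145 interior ORFs at a size of 0.3 or more, 100 of them higher in Sc2 and 45 higher in Sc1 (4.36% of all 6123 ORFs reached that size). The path through the hybrid placed 226 interior ORFs at 0.3 or more, and in 187 of these the direct sample gave less than 0.3. In 106 of the 145 the path through the hybrid gave less than 0.3, and in 6 it gave at least 0.3 with the opposite sign. These 6, YGL176C, GID7, VPS8, AHC2, YNL194C and PBN1, had readings that parted by 0.70 or more in size, and over the whole table the departure ran from −1.66 to 3.09. VPS8, a vacuolar sorting gene, was at −0.51 in the direct sample and at 0.37 through the hybrid. Members close to the limit were RPB3 (smaller reading 0.31), FET5 (0.314) and SLM1 (0.314), and the nearest ORFs below it were UFO1 (0.289), MMO1 (0.288) and QCR6 (0.283). The limit of 0.3 therefore passes through a continuous range of values.

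The departure of the direct reading from the path through the hybrid had a median size of 0.085 over the members and 0.10 over all ORFs. Among the members it was widest at CUE4 (−0.82), YJL027C (−0.63), OSH7 (−0.42) and YAT1 (−0.39), where the direct sample gave the larger difference. By limma, 28 of the 33 members had an adjusted p under 0.05 between the parents, 24 lower in Sc1 and 4 higher, against 1.98% of all ORFs (1.45% lower and 0.523% higher). The rule used this contrast, so the count only restates the choice. It is also unsteady: 11 of the same calls were left when samples were not centred and 11 when the prior degrees of freedom were set to 4.

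The members LAG1, OSH7 and SLM1 have roles at membrane lipids. This and the groups that follow were put together after the values were seen, and the share of such genes among all ORFs was not counted. LAG1, which encodes a ceramide synthase subunit, was at −0.79 in the Sc1 over Sc2 sample, at 0.27 in the hybrid over Sc1 and at −0.39 in the hybrid over Sc2. OSH7, which encodes a carrier of phosphatidylserine between the endoplasmic reticulum and the plasma membrane, was at −0.79, 0.22 and −0.15 in the same order. SLM1, a phosphoinositide-binding effector of the TORC2 kinase complex, was at −0.31, 0.17 and −0.16. SLM1 had, with RPB3, the smallest estimate of the 33 in size (−0.32). All 3 were highest in Sc2 and lowest in Sc1, with the hybrid between them. LAG1 and OSH7 lie on either side of the centromere of chromosome VIII, 3 places apart in the order of measured ORFs. The ORFs between them, HSE1 (estimate 0.083) and RPL14B (−0.10), did not share their values.

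Genes of the secretory pathway and the cell surface also stood among the members. BST1, which encodes the inositol deacylase of glycosylphosphatidylinositol anchors in the endoplasmic reticulum, was at −0.50 in Sc1 over Sc2, at 0.23 in the hybrid over Sc1 and at −0.43 in the hybrid over Sc2. YND1, an apyrase gene of the Golgi, was at −0.40, 0.058 and −0.26. SWP1, which encodes a subunit of the oligosaccharyltransferase of N-glycosylation, ran the other way at 0.58, −0.065 and 0.26. It had the highest estimate of the 33, 0.49 ± 0.078 (SE from the fit over 3 samples). PHO5, the gene of the secreted repressible acid phosphatase, was at −0.34, 0.13 and −0.21. PDR12, which encodes an ABC transporter that expels weak organic acids, was at −0.42 in Sc1 over Sc2, at 0.50 in the hybrid over Sc1 and at −0.077 in the hybrid over Sc2. At PDR12 the hybrid was thus close to Sc2, whereas at YND1 it was close to Sc1.

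Mitochondrial genes formed another group. YAT1, which encodes a carnitine acetyltransferase, was at −0.90 in Sc1 over Sc2, at 0.24 in the hybrid over Sc1 and at −0.28 in the hybrid over Sc2. TCM62, an assembly chaperone gene for succinate dehydrogenase, was at −0.71, 0.025 and −0.36. RSO55, which encodes a mitochondrial protein, was at −0.52, 0.47 and −0.23. These 3 were lower in Sc1. Read from the hybrid samples alone, the hybrid was at the level of Sc1 for TCM62 and between the parents for YAT1 and RSO55. ATP4, which encodes a subunit of the stator of the ATP synthase, was higher in Sc1 at 0.36, −0.21 and 0.21, with the hybrid midway. YAT1 is the member nearest to a chromosome end, in place 21 of the right arm of chromosome I, just inside the limit of 20.

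Redox and metal genes included GPX1, FET5 and NAR1. GPX1, a glutathione peroxidase gene, was at −0.61 in Sc1 over Sc2, at 0.31 in the hybrid over Sc1 and at −0.21 in the hybrid over Sc2. FET5, a multicopper oxidase gene of the vacuole, was at −0.55, −0.004 and −0.32. NAR1, which acts in the assembly of cytosolic iron-sulphur proteins, was at −0.34, 0.15 and −0.24. All 3 were lower in Sc1 than in Sc2, and FET5 was the member at which the hybrid came closest to the level of Sc1.

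Genes of chromosomes, transcription and signalling made up a further group. MCM5, which encodes a subunit of the replicative helicase, was at −0.58 in Sc1 over Sc2, at 0.19 in the hybrid over Sc1 and at −0.29 in the hybrid over Sc2. EPL1, a subunit gene of the NuA4 histone acetyltransferase, was at −0.55, 0.11 and −0.29. STE4, the gene of the beta subunit of the mating pheromone G protein, was at −0.51, 0.44 and −0.14. The parental differences of these 3 were alike in size, but the hybrid was nearer to Sc1 for EPL1 and nearer to Sc2 for STE4. CIC1, a gene of large ribosomal subunit assembly, was at −0.39, 0.034 and −0.34. ESL1, a relative of the telomerase gene EST1, was at −0.37, 0.15 and −0.18, and RPB3, which encodes a subunit of RNA polymerase II, was at −0.31, 0.13 and −0.20. CIC1 thus placed the hybrid with Sc1, while ESL1 and RPB3 placed it midway.

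MED2 and CTF3 were higher in Sc1. MED2, which encodes a subunit of the tail of the Mediator complex, was at 0.37 in Sc1 over Sc2, at −0.050 in the hybrid over Sc1 and at 0.30 in the hybrid over Sc2. CTF3, a kinetochore gene, was at 0.41, −0.43 and −0.085. The hybrid was therefore near Sc1 for MED2 and below both parents for CTF3 on these values. At CTF3 the gap to Sc2 was small, with an estimate of −0.063 ± 0.062 (SE) for the hybrid over Sc2.

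The remaining members have no gene name or a little-known function. CUE4, which encodes a protein with a ubiquitin-binding CUE domain, had the lowest estimate (−1.07 ± 0.17, SE), but its values were uneven at −1.34 in Sc1 over Sc2, 0.18 in the hybrid over Sc1 and −0.35 in the hybrid over Sc2. Its direct value is 1 of the whole-number cells whose decimal point was restored, as is that of YJL027C. ECM23, a zinc-finger gene, was at −0.60, 0.43 and −0.22, and MTC7, whose function is not established, was at −0.33, 0.20 and −0.15. ECM23 and MTC7 gave nearly equal readings on the direct and the indirect path, unlike CUE4.

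Of the 33 members, 7 carry a systematic name only (21.2%, against 14.4% of the interior ORFs). These shares include ORFs absent from the gene table used here, 2 of the members and 393 of the interior ORFs, so they do not count unnamed genes alone. YJL027C was at −1.13 in Sc1 over Sc2, at 0.29 in the hybrid over Sc1 and at −0.21 in the hybrid over Sc2, and its neighbour YJL028W was at −0.52, 0.20 and −0.12. YDR215C was at −0.63, 0.60 and −0.25, the highest value of a member in the hybrid over Sc1. YLR280C was at −0.43, 0.50 and −0.013, so the hybrid matched Sc2 there. YDR010C was at −0.47, 0.26 and −0.11, and YHR095W at −0.45, 0.093 and −0.27. YER135C was at 0.32, −0.18 and 0.17, and it is the 1 ORF of the 7 that was higher in Sc1. YLR280C and YHR095W are not in the gene table used here.

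**Figure D2:**
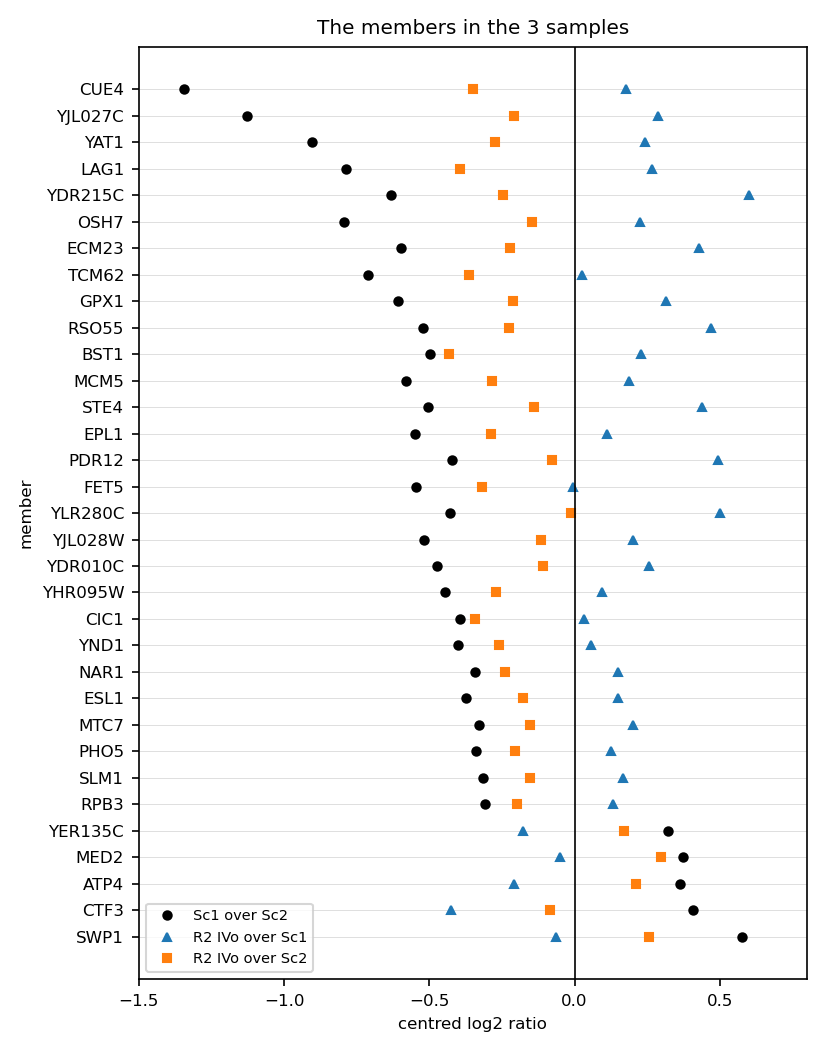
The 33 members (rows, ordered by the estimate for Sc1 over Sc2) with their centred log2 ratio in each of the 3 samples (x axis); each point is 1 deposited value. In the upper 28 rows Sc1 over Sc2 (black circles) is negative and in the lower 5 it is positive.

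The members were spread over 14 of the 16 chromosomes, with none on III and VII and at most 4 on any, which were VIII and XII. These were 4 of 228 interior ORFs on VIII and 4 of 490 on XII, beside 0 of 129 on III and 0 of 516 on VII. By share the highest was VI, with 3 of 78. Of the 33, 27 had no member directly beside them, and 6 lay next to another member. These 6 were the neighbours BST1 and EPL1 on chromosome VI, YJL027C and YJL028W on X, and YLR280C and RSO55 on XII. The name single-gene difference therefore fits 27 members by this count and not these 3 neighbour pairs. A further case is CUE4, whose neighbour YML101C-A shared its direction (−0.74 direct, −0.45 through the hybrid) and was set aside only for its name. Members were 0.614% of the interior ORFs, but 6 of the 66 ORFs directly beside a member, with each pair counted from both sides. Members thus lay side by side more often than their share of the interior ORFs. This rests on 3 pairs and was not tested.

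Of the 66 ORFs directly beside a member, 60 were no members themselves. Their difference between the parents, counted as positive in the direction of the member, had a median of 0.013, with 35 of 60 in the member's direction, against a median of 0.47 for the members. The rule set a least size for the members, and the 60 leave out flanks that are members, so this gap is in part built in. Over all 66 the median was 0.015. Of all 66, 8 had both readings of 1 sign at 0.3 or more, where 2.11% of all ORFs did, and 6 of these were members. The other 2 fell among the 60, which by the rule can hold such values only in ORFs set aside, so their count has no fair background. They were YML101C-A and, next to CIC1, CUP1-1. CUP1-1 was higher in Sc1 by an estimate of 1.12, while CIC1 was lower in Sc1 at −0.39, so the signal turned from high to low between adjacent ORFs. At 2 places from a member, the estimates of 4 ORFs in the member's direction passed 0.3 in size: YAR040C by YAT1 at −0.84, SPF1 by MTC7 at −0.56, ZTA1 by TCM62 at −0.42 and SPR2 by STE4 at −0.38. YAR040C owed this to the direct sample alone (−1.28, against 0.056 through the hybrid). The share of all ORFs with an estimate of that size was not counted. ESL1 and SLM1, both lower in Sc1, each had a neighbour whose estimate was higher in Sc1, VPR1 at 0.31 and MOB1 at 0.35, though for both the path through the hybrid gave a value below 0. The other neighbour of ESL1, MCM10, was higher in Sc1 on both readings (0.20 direct, 0.35 through the hybrid). Around other members, such as STE4, LAG1, GPX1, PDR12, NAR1, MED2, CTF3 and SWP1, both adjacent ORFs lay between −0.013 and 0.10 in their estimates.

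**Figure D3:**
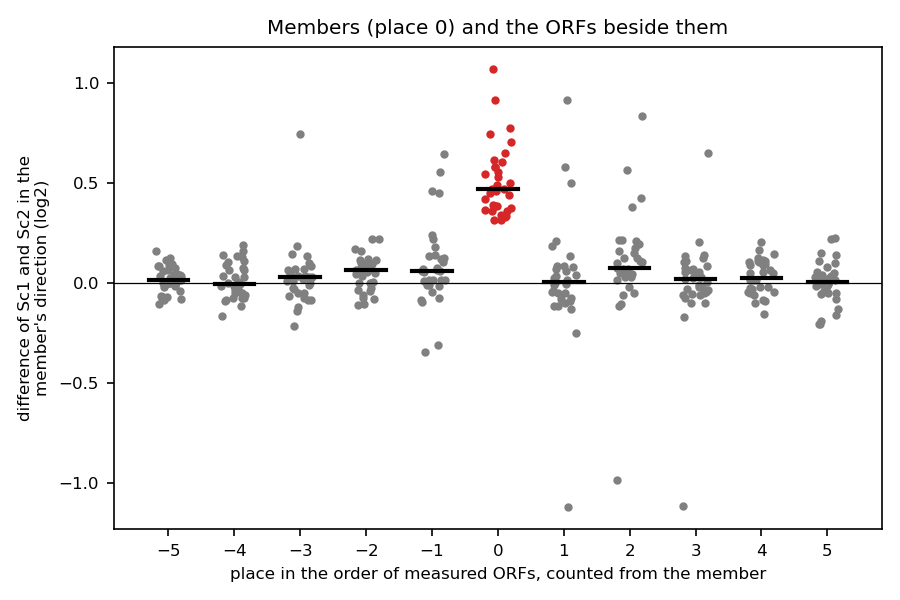
Difference of Sc1 and Sc2 (log2 estimate, y axis, positive in the direction of the member) at the members (place 0, red) and at the measured ORFs up to 5 places away (grey, x axis); black bars are medians. The median is 0.47 at the members and between −0.0077 and 0.076 at every other place, and the lowest points at places 1 to 3 are the CUP1 repeat beside CIC1. The rule set a least size at place 0, so the step from there is in part built in.

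Several members belong to gene pairs or small families whose other copy lies elsewhere in the genome. The relatives were named from general knowledge of yeast after the members were known, and no sequence was compared. For 12 members, 13 relatives were measured, and their direct values of Sc1 over Sc2 ran from −0.13 to 0.16. None of the 13 reached 0.3 in size, which 4.36% of all ORFs did, so the count is near the background. LAC1, the other ceramide synthase gene, was at −0.039 in the direct sample where LAG1 was at −0.79. OSH6 was at 0.031 beside OSH7 at −0.79, CUE1 at 0.049 beside CUE4 at −1.34, and SRD1 at 0.092 beside ECM23 at −0.60. At these 4 relatives the direct value was near 0. The path through the hybrid was less even over the 13, from −0.28 at GPX2, in the direction of its relative GPX1 (−0.53), to 0.25 at LAC1. FET3, of high-affinity iron uptake, was at 0.041 beside FET5 at −0.55, and the drug transporter gene SNQ2 was at −0.030 beside PDR12 at −0.42. Through the hybrid FET3 was at 0.22 and SNQ2 at 0.20, against −0.31 for FET5 and −0.57 for PDR12.

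PHO3 and PHO5 lie side by side on chromosome II and encode similar acid phosphatases. PHO3 was at −0.13 in the direct sample and at −0.16 through the hybrid, the same direction as PHO5 (−0.34 and −0.33) at a smaller size. PHO5 was the 1 member among 5 acid phosphatase genes, whose estimates ran from −0.34 to 0.056 with a median of −0.14, beside 0.002 over all ORFs. Between the parents limma called 0 of the 5 (2 had an unadjusted p below 0.05), where 1.98% of all ORFs were called and 9.57% had an unadjusted p below 0.05. Their hybrid values lay within 0.042 of the mean of the parents.

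**Figure D4:**
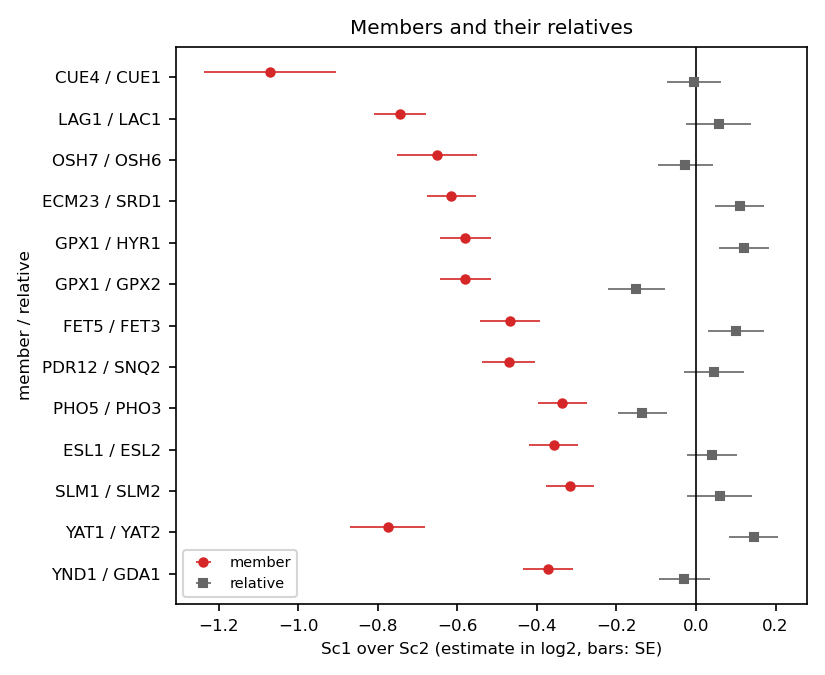
Estimate of Sc1 over Sc2 (x axis, log2; bars are SE) for 12 members (red circles) and their 13 relatives (grey squares), a row for each pair. All the members shown are at −0.32 or lower and the relatives lie between −0.15 and 0.15.

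The mean of the hybrid samples was not used to choose the members, and it asks whether R2 IVo differed from the average of its parents. The estimate is thus free of the rule, but its SE and p are not fully so, since the residual of each ORF is the gap between the readings that chose the members. By limma on all 3 samples, 0 of the 33 members were called (adjusted p between 0.277 and 0.998), where 0.196% of all 6123 ORFs were called. Without adjustment 7 members had a p below 0.05, 4 above the mean of the parents and 3 below it, which is 21.2% of the members against 7.02% of all ORFs (3.38% above and 3.64% below). Because of that dependence nothing is read from the difference of these shares. The member values of the hybrid minus the mean of its parents had a median of −0.003 and ran from −0.26 to 0.24. The 16 members above 0 and the 17 below it show no common direction.

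The 7 were CTF3 (−0.26 ± 0.054, SE; limma adjusted p = 0.277), YLR280C (0.24 ± 0.055; limma adjusted p = 0.315), PDR12 (0.21 ± 0.058), YDR215C (0.18 ± 0.064), FET5 (−0.16 ± 0.065), CIC1 (−0.15 ± 0.053) and STE4 (0.15 ± 0.054). The median SE over the members was 0.055, and even the shift at CTF3 was not called in a test over 6123 ORFs. These ORFs had the hybrid at or beyond the level of a parent, as at FET5 and YLR280C, or nearer to that parent than the average.

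The position of R2 IVo between its parents was read from the hybrid samples alone, with 0 for the level of Sc2 and 1 for that of Sc1. It carries no test, since each position comes from 1 value per sample. The median position was 0.53 over the 33 members, 0.53 over the 28 higher in Sc2 and 0.50 over the 5 higher in Sc1. Within 0.25 of a parent, 6 members were at the level of Sc1, 4 at that of Sc2, and 23 lay between the parents. FET5 (1.01), TCM62 (0.94), CIC1 (0.91), MED2 (0.86), YND1 (0.82) and SWP1 (0.80) were those at the level of Sc1. YLR280C (0.025), PDR12 (0.13), STE4 (0.24) and CTF3 (−0.25) were those at the level of Sc2, CTF3 only at the edge of the tolerance and below both parents. Within 0.15 of a parent, 4 members were at the level of Sc1, 2 at that of Sc2, 26 between and 1, CTF3, outside. The divisor of this position is the difference read through the hybrid, which the rule required to be 0.3 or more in size, so the choice of members itself draws positions towards the middle and the counts describe only these members. The position is least certain where the divisor is small, as at FET5 (−0.31). It is also uncertain where the direct sample gave a larger difference than the divisor. Such members at the level of Sc1 were FET5 (−0.55 direct), TCM62 (−0.71 direct, −0.39 through the hybrid) and SWP1 (0.58 and 0.32).

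Adjacent members had the hybrid at like positions in part. BST1 and EPL1 were at 0.65 and 0.72, and YJL027C and YJL028W at 0.42 and 0.36. YLR280C and RSO55 were farther apart at 0.025 and 0.33. LAG1 and OSH7, either side of the centromere of chromosome VIII, were at 0.60 and 0.40. On chromosome XII the members MCM5 (0.60), YLR280C, RSO55 and CTF3 (−0.25) differed, whereas on chromosome IX the members ESL1 (0.54), SLM1 (0.48) and RPB3 (0.60) all lay near the middle.

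**Figure D5:**
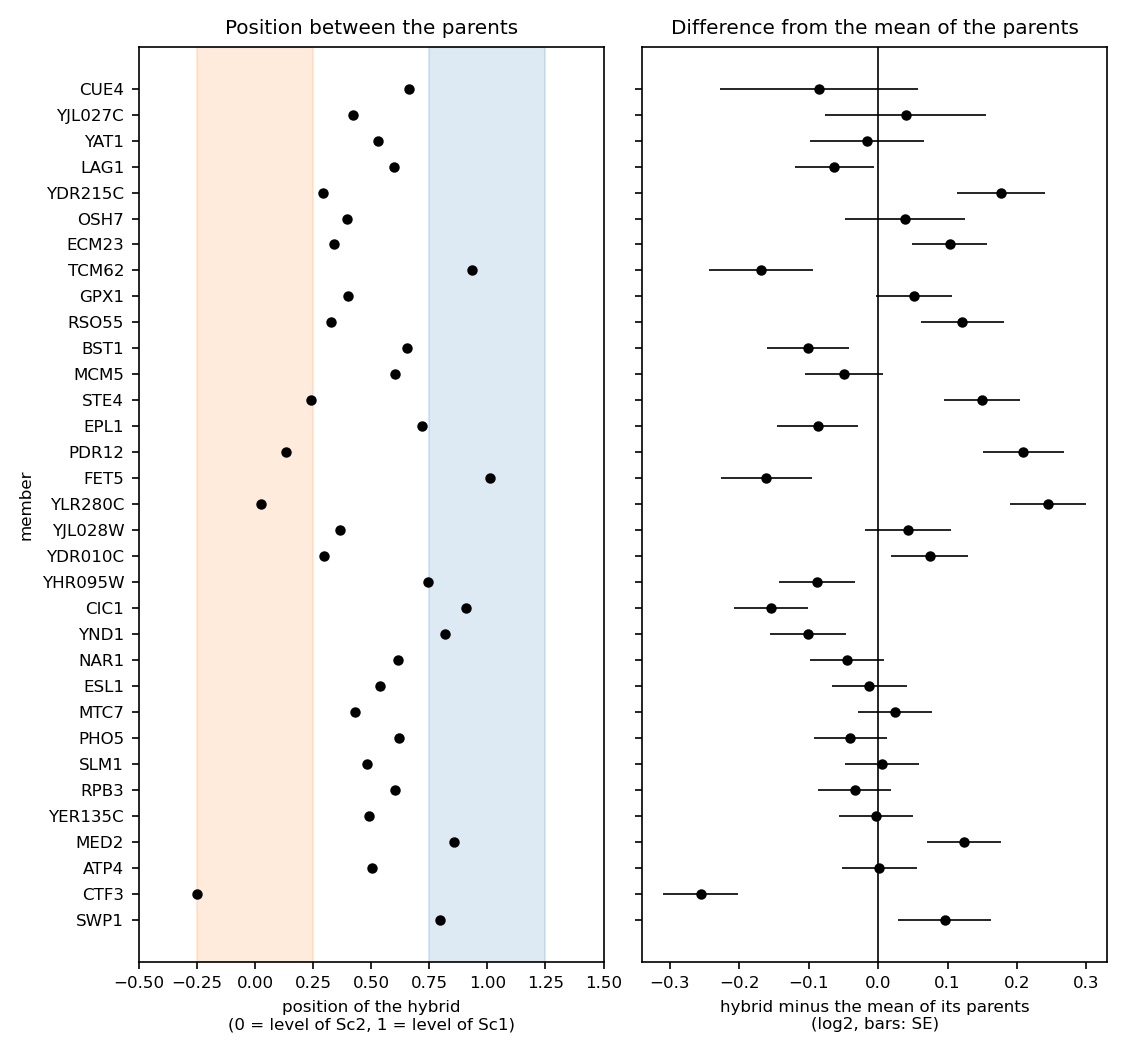
Left, position of the hybrid R2 IVo between Sc2 (0) and Sc1 (1) at each member (rows), with shading within 0.25 of either parent; 23 of 33 lie between the shaded bands. Right, hybrid minus the mean of its parents (log2, points) with the SE of the limma fit (bars); the values run from −0.26 at CTF3 to 0.24 at YLR280C.

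Other families that vary between yeast strains were compared on the same values. The 6 mating-type genes ran from −0.13 to 0.064 in the estimate of Sc1 over Sc2, the 10 membrane protein genes of the DUP240 family from −0.11 to 0.11, and the 4 purine-cytosine permease genes from 0.013 to 0.061. No gene of these 3 lists met the value part of the rule. Between the parents limma called 0 of these 20 genes, and 0 had an unadjusted p below 0.05, against the same 1.98% and 9.57% of all ORFs. The 5 asparaginase genes ran from −0.27 to 0.040, with 0 limma calls and 1 unadjusted p below 0.05. The lowest of these was ASP1, the gene of the cytosolic enzyme, at −0.33 in the direct sample and −0.14 through the hybrid. In the hybrid minus the mean of its parents, limma called 0 of these 25 genes and 0 of the 5 acid phosphatase genes, and 1 asparaginase gene had an unadjusted p below 0.05, against 0.196% of all ORFs called and 7.02% without adjustment.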

How the data were processed

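The authors deposited 1 log ratio score per ORF and sample, combined over duplicate arrays with exchanged dyes per the labels. Log base, scanner, background correction, normalisation, averaging: not given in the sources used here. No intensities were used, so how far signals stood above background is unknown, and the number of arrays limits precision. Of 6180 entries, 2 were control spots, and 55 ORFs lacked a value, which left 6123. In 57 ORFs, 76 cells held whole numbers of size 1000 or more, with none between 3 and 1000. They were read as having lost the decimal point and divided by 1000. Each sample was centred on its median.

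The departure from closure of the strain triangle had an SD of 0.19 with the directions of the titles and 0.29 to 0.42 with any sample turned. Strain differences were estimated with limma 3.58.1 (R 4.3.3; lmFit and eBayes, 1 residual degree of freedom per ORF, Benjamini-Hochberg over 6123 ORFs, called at an adjusted p under 0.05). The p-values measure array error, not the spread between cultures. The fit was run on simulated data with independent errors, which checks the estimates and not the p-values of ORFs picked by the rule. Symbols came from RefSeq R64 (5625 of 6123 ORFs matched). Its coordinates were not used. Ty ORFs were listed by hand because that table does not mark them.

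Members and gene lists (mating type, DUP240, asparaginases, acid phosphatases, purine-cytosine permeases) were chosen with earlier results of these data known. All members may be named, with their values in every sample. The planned search for similar proteins could not be run without sequences. The planned lists of plasmid and mitochondrial ORFs had no entry in the table. Role groups and relatives were chosen after the values were seen. Alternatives were other sizes, end limits, centrings, priors, and leaving out ORFs with restored cells.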

Additional observations from a re-analysis of the deposited data

How the results depend on the processing

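The number of members followed the size limit, with 14 at 0.4, all higher in Sc2, and 97 at 0.2, of which 70 were higher in Sc2. It was 41 and 30 with 10 and 30 outermost ORFs of each arm set aside, 31 without ORFs with restored decimal points, and 33 without centring and with centring on the mode, 32 of them shared with the main set each time. ORFs over the whole table with the hybrid off the mean of its parents numbered 12, against 5 without centring, 37 with centring on the mode, 4 with prior degrees of freedom of 4, 0 without ORFs with restored decimal points (where the largest ratios are removed) and 10 with robust moderation. The cause of these shifts was not tested. Under each of these settings 0 of the members were called. These settings say nothing about the sign of a member's difference from the mean of the parents, because the moderation does not enter that estimate and the centrings nearly cancel in it. The median position was 0.53 under every centring. The 28 members called between the parents became 11 without centring, 33 with centring on the mode, 25 with robust moderation and 11 with the fixed prior. The settings were planned for the hybrid results, and their use on these parental calls was added after seeing the data. A linear mean of the parents gave a median hybrid difference of −0.017. No paired analysis was possible because each pair of strains has 1 sample.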
